A study of Mus musculus with 4 samples.

Results

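The genes described here are 9 cathepsins (Ctsa, Ctsb, Ctsc, Ctsd, Ctsh, Ctsk, Ctsl, Ctss and Ctsz) and the cathepsin inhibitor cystatin C (Cst3) in dystrophic mouse muscle. They were chosen by name, as all probe sets whose only gene symbol in the platform annotation was one of these 10, which gave 21 probe sets of 34945 with a single symbol and 10 genes of 18193. The muscle was tibialis anterior of C57BL/6J mice, profiled on Affymetrix Mouse Genome 430 2.0 arrays with 1 array for each of 4 groups. The mdx/MMP-2-/- groups, called mdx/MMP-2 null below, carried the mdx allele and lacked matrix metalloproteinase 2 (MMP-2), and were sampled at the ages of 1 month and 3 months. The mdx groups carried the mdx allele alone and were sampled at the same ages. All 4 groups thus lacked dystrophin, and no group of wild-type muscle was analysed here. Whether an array held RNA of 1 mouse or of several was not given in the sources used here.

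Cathepsins are proteases that work mainly in the acid lumen of lysosomes, where they degrade proteins taken up from outside the cell or delivered by autophagy. Most are cysteine proteases of the papain family, while cathepsin D is an aspartic and cathepsin A a serine protease. Cystatin C is a small secreted protein that blocks cysteine cathepsins that have left the cell. In damaged muscle, macrophages that clear dead fibres are rich in several cathepsins, and muscle fibres, fibroblasts and endothelial cells express some of them too.

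The values are MAS5 signals, a summary of brightness per probe set, which were quantile normalized between arrays. A signal at or below 17.4, the median of all signals, was treated as a floor, and 12801 genes exceeded it in at least 1 array. With 1 array per group no difference between 2 arrays has a test, so "higher" and "lower" describe those arrays, and their number limits the precision. Mmp2, the targeted gene, stood at 24.7 in mdx/MMP-2 null muscle and 985 in mdx muscle at 1 month, and at 40.9 in mdx/MMP-2 null muscle and 805 in mdx muscle at 3 months. All 8 skeletal muscle markers were above the floor in every array. Before scaling, the trimmed mean signal of the mdx/MMP-2 null array at 3 months was 1.34 times that of mdx at 1 month, while the other arrays stood at 0.99 to 1.07. RNA integrity can be read from Actb, whose ratio of 3' to 5' signal was 2.09 to 2.36 at 3 months and 1.05 to 1.19 at 1 month, so age differences and this ratio cannot be told apart here. The same ratio for Gapdh was 0.935 to 0.936 at 3 months and 0.85 to 0.883 at 1 month. The mdx array at 1 month stood apart in markers of cartilage and bone, with a summed signal of 819 for the 6 measured, where the other arrays had 370 to 487.

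The endopeptidases among the members cut inside protein chains. Ctsb, an abundant lysosomal cysteine protease, had a signal of 4464 in mdx/MMP-2 null muscle and 4727 in mdx muscle at 1 month, and of 5064 in mdx/MMP-2 null muscle and 3799.9 in mdx muscle at 3 months. Ctsl, a lysosomal protease of broad specificity, had 3013 in mdx/MMP-2 null muscle and 2768 in mdx muscle at 1 month, and 2947 in mdx/MMP-2 null muscle and 2359 in mdx muscle at 3 months. For both genes the mdx array at 3 months held the lowest signal of the 4. Ctss, which trims the invariant chain of class II molecules and stays active near neutral pH, had 2228 in mdx/MMP-2 null muscle and 2625 in mdx muscle at 1 month, and 2845 in mdx/MMP-2 null muscle and 2100.0 in mdx muscle at 3 months. Ctsk, known for cutting collagen in osteoclasts, had 364 in mdx/MMP-2 null muscle and 317 in mdx muscle at 1 month, and 371 in mdx/MMP-2 null muscle and 235 in mdx muscle at 3 months. Ctss was thus highest in the mdx/MMP-2 null array at 3 months, and for Ctsk 3 arrays lay close together above the mdx array at 3 months.

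The exopeptidases remove residues from the ends of proteins. Ctsc, a dipeptidyl peptidase that activates the granule serine proteases of immune cells, had 1205 in mdx/MMP-2 null muscle and 1323 in mdx muscle at 1 month, and 1409 in mdx/MMP-2 null muscle and 863 in mdx muscle at 3 months. Ctsh, an aminopeptidase, had 415 in mdx/MMP-2 null muscle and 497 in mdx muscle at 1 month, and 413 in mdx/MMP-2 null muscle and 352 in mdx muscle at 3 months. Ctsz, a carboxypeptidase, had 1172 in mdx/MMP-2 null muscle and 1389 in mdx muscle at 1 month, and 808 in mdx/MMP-2 null muscle and 670.2 in mdx muscle at 3 months. Ctsh and Ctsz were highest in the mdx array at 1 month, and Ctsz was lower in both arrays at 3 months than in either array at 1 month.

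The remaining members belong to other protein families. Ctsd, the main aspartic protease of lysosomes, had 2394 in mdx/MMP-2 null muscle and 2407 in mdx muscle at 1 month, and 3318 in mdx/MMP-2 null muscle and 2744 in mdx muscle at 3 months. Ctsa, which also protects beta-galactosidase and neuraminidase in the lysosome, had 733 in mdx/MMP-2 null muscle and 622 in mdx muscle at 1 month, and 610.4 in mdx/MMP-2 null muscle and 531 in mdx muscle at 3 months. Cst3 had 4693 in mdx/MMP-2 null muscle and 4738 in mdx muscle at 1 month, and 5396 in mdx/MMP-2 null muscle and 5401 in mdx muscle at 3 months. Ctsd and Cst3 were higher in both arrays at 3 months than in either at 1 month, whereas Ctsa was lower in both. Over the 10 genes the ratio of the highest to the lowest array was 1.15 for Cst3, the least, and 2.07 for Ctsz, the greatest.

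**Figure D1:**
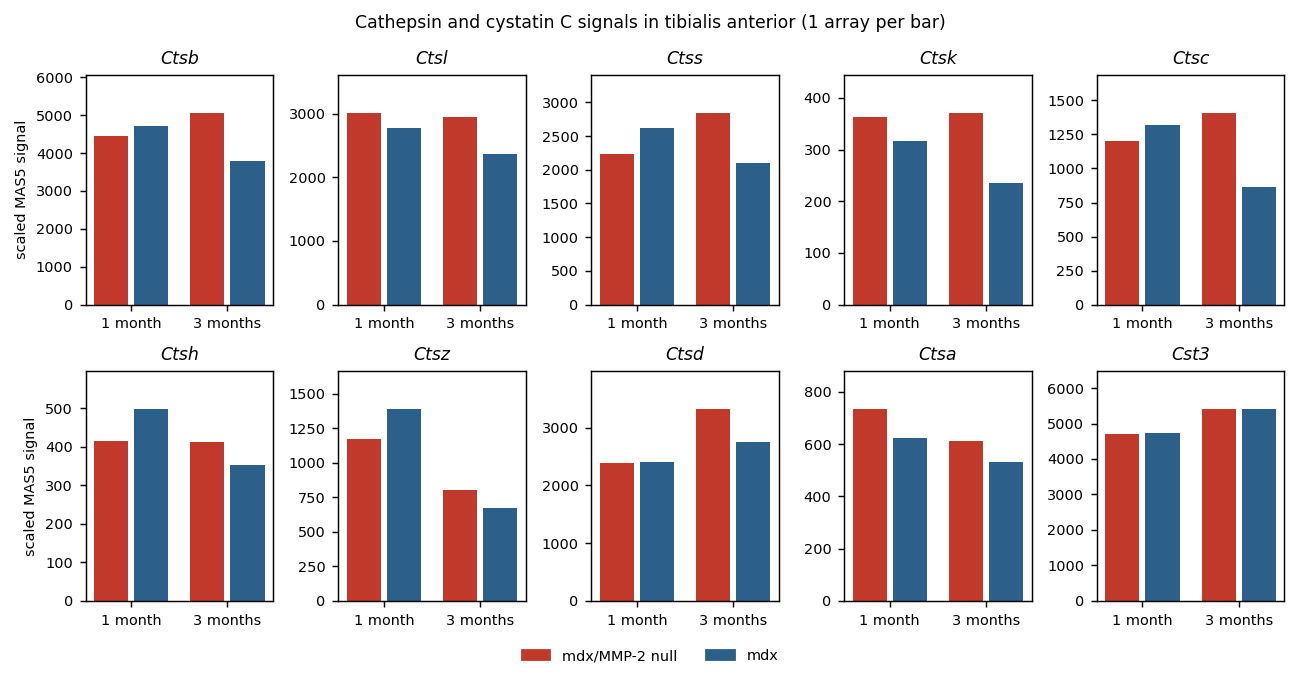
Scaled MAS5 signal (vertical axes, linear, from 0) of the 10 genes in each of the 4 arrays, 1 array per bar and hence no error bars, with mdx/MMP-2 null in red and mdx in blue. The mdx array at 3 months is the lowest bar for 8 genes, all but Ctsd and Cst3; with median scaling it was lowest for 5.

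At 3 months, 9 of the 10 genes had a higher signal in mdx/MMP-2 null than in mdx, where 47.6% of all genes did. Ctsc was 1.63-fold higher (1409 against 863), Ctsk 1.58-fold (371 against 235), Ctss 1.35-fold (2845 against 2100.0) and Ctsb 1.33-fold (5064 against 3799.9). Ctsl, Ctsd, Ctsz, Ctsh and Ctsa were higher by 0.20 to 0.32 on the log2 scale. Cst3, the inhibitor, was alike in both arrays, with a log2 difference of -0.0014. The comparison sets dystrophic muscle without MMP-2 beside dystrophic muscle with it. The 9 genes kept their sign under all 9 alternatives of scaling, floor, probe sets and bright genes, while Cst3 turned under 1. Only the scalings and the mean of a gene's probe sets could turn a sign. The other alternatives left each member's representing probe set, and so its sign, as it was. Ctsa came closest to 0 of the 9, at 0.02 with the mean of its probe sets. The members' median log2 difference was 0.30, with a range from -0.0014 to 0.71, beside a median of 0.0 over all genes. At least 1.5-fold higher were 2 of 10 members, Ctsc and Ctsk, where 6.12% of all 12801 genes passed that fold, and 3.99% of the 7749 bright genes, those with a signal of at least 85.4 (the 75th percentile of all signals) in some array. None was at least 1.5-fold lower, where 3.33% of all genes were. Without scaling between arrays 9 members passed, but so did 3868 of 12872 genes, and the median difference of all genes was then 0.41. With the mean of a gene's probe sets 1 member passed, Ctsk, since Ctsc then differed by 0.17 in place of 0.71 and its second probe set above the floor in all arrays by -0.40. The difference of Ctsc and Ctsk lay above those of 97.7% and 97.1% of bright genes.

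Promoter stretches are printed for the members that differed most at 3 months and for those whose promoters carry a motif of lysosomal genes. RefSeq promoter windows of GRCm38.p6, from 250 bases before to 50 after a start, were at hand for 8 of the 10 genes, and 2 (Ctsb and Ctsh) were not examined. The motif GAGGAAG, a core bound by ETS factors such as PU.1, was found on either strand in the windows of Ctsc, Ctsk and Ctss, and in no other window of a member. By the probe set that represents each gene these had the 3 largest differences at 3 months, but with the mean of all probe sets Ctsc, at 0.17, lay below Ctsk, Ctss, Ctsz, Ctsh, Ctsd and Ctsb. The motifs were chosen with earlier results of these data known, so nothing is read from the match of motif and difference. It was present in 13.6% of all 32851 windows. Capitals mark the motif or its reverse complement in stretches from chr7:88277858-88277953 (plus strand), chr3:95498960-95499169 (plus strand) and chr3:95526755-95526797 (plus strand).
Ctsc: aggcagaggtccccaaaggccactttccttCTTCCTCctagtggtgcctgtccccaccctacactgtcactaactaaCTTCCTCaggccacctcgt
Ctsk: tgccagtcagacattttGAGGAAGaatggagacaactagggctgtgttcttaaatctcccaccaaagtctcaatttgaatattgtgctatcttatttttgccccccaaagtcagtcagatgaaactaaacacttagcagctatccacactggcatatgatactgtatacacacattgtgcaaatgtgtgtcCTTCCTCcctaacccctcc
Ctss: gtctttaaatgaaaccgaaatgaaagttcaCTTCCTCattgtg
Ctsc and Ctsk held 2 matches each and Ctss held 1, which spans the start site. Ctsk and Ctss are next to each other on chromosome 3. The matches are letters in a window and not measured binding.

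A motif of lysosomal genes was found at 3 further members. CACGTG, the core bound by TFEB (a regulator of lysosomal genes) and other bHLH factors, was present in the windows of Ctsd and Ctsl and in 1 of 2 windows of Ctsa, and in 7.15% of all windows. These 3 genes had log2 differences of 0.27, 0.32 and 0.20 between mdx/MMP-2 null and mdx at 3 months. Capitals mark the motif, which reads alike on both strands, in stretches from chr7:142387908-142388077 (minus strand), chr13:64370739-64370770 (minus strand) and chr2:164833731-164833784 (plus strand).
Ctsd: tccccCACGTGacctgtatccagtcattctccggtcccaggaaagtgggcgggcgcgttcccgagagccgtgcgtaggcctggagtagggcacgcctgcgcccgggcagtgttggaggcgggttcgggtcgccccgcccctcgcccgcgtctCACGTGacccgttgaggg
Ctsl: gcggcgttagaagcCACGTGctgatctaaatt
Ctsa: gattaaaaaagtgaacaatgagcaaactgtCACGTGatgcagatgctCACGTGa
The AP-1 motif TGANTCA was in none of the 9 windows of the members and in 7.81% of all windows. The windows of Cst3 and Ctsz held none of the 3 motifs.

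At 1 month the members lay on both sides of 0, and none reached 1.5-fold in either direction. Ctsa was 1.18-fold higher in mdx/MMP-2 null than in mdx (733 against 622) and Ctsk 1.15-fold higher (364 against 317). Ctsh was 1.2-fold lower (415 against 497), Ctsz 1.19-fold lower (1172 against 1389) and Ctss 1.18-fold lower (2228 against 2625). The comparison is the same as above in younger muscle. All 6 cartilage and bone markers were lower in mdx/MMP-2 null than in mdx at this age, with a median of -0.95. Among them Col2a1, the collagen of cartilage, was 5.83-fold lower (29.8 against 174), and Ibsp, a bone matrix protein, at least 6.22-fold lower (the floor against 109). Their part in the members' differences was not tested. In all, 3 members were higher and 7 lower, with a median log2 difference of -0.05 and a range from -0.26 to 0.24, beside 0.0 for all genes. Of all genes 46.8% were higher and 48.3% lower. A 1.5-fold difference was reached upward by 3.52% of all genes and downward by 3.56%. Ctsd and Cst3 hardly differed, with log2 differences of -0.01 each. The signs of Ctsd, Ctsl and Cst3 at 1 month turned under some settings, while the other 7 kept theirs under all 9. Here too only the scalings and the mean of probe sets could turn a sign.

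**Figure D2:**
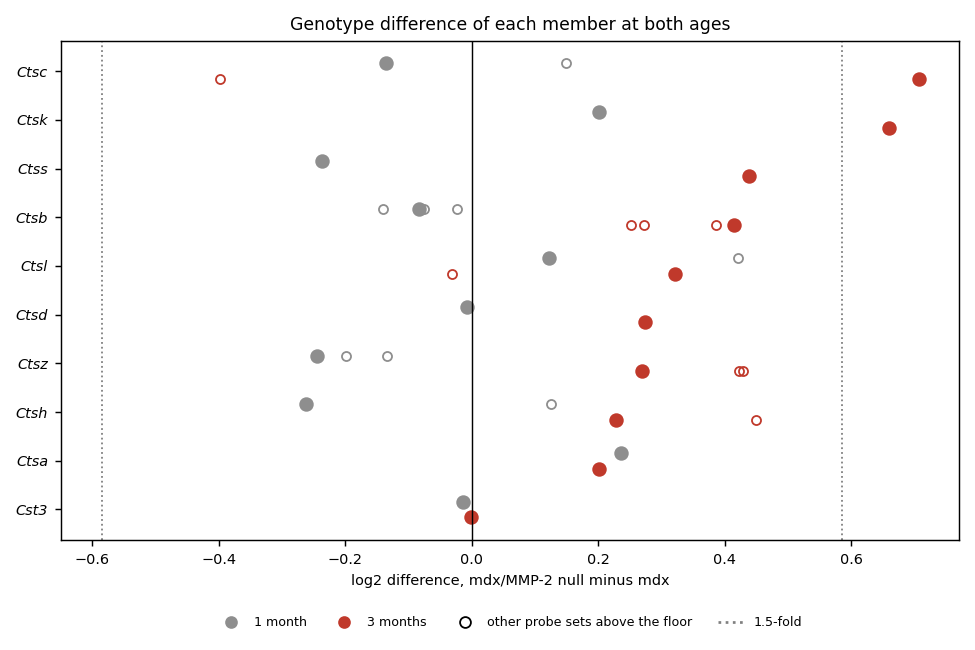
Log2 difference between mdx/MMP-2 null and mdx (horizontal axis) for each gene, with 1 month in grey and 3 months in red. Filled points are the probe set that represents the gene, open points its other probe sets above the floor in all arrays, and dotted lines mark 1.5-fold; at 3 months 9 of 10 filled points lie right of 0.

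The genotype difference was greater at 3 months than at 1 month for 9 of 10 members, all but Ctsa, and for 50.5% of all genes. The difference of the 2 differences was 0.84 for Ctsc and 0.67 for Ctss on the log2 scale, both past 1.5-fold, and 0.46 to 0.51 for Ctsz, Ctsb, Ctsh and Ctsk. It was 0.28 for Ctsd, 0.20 for Ctsl, 0.01 for Cst3 and -0.03 for Ctsa. The median over members was 0.47, beside 0.00398 for all genes. This fold was passed upward by 10.4% of all genes and 7.07% of the bright ones, and downward by 7.58% of all genes and no member. Without scaling 6 members passed 1.5-fold, with median scaling 5, and with the mean of all probe sets 1, Ctss. In that last setting Ctsc was at 0.20 and the members' median at 0.28. For the 6 cartilage and bone markers the difference of the 2 differences was above 0 too, with a median of 0.96. For all but Comp it came from 1 month, where the median genotype difference of the 6 was -0.95. At 3 months that median was 0, and 4 of them were at the floor in both arrays. Comp differed by -0.30 at 1 month and by 0.62 at 3 months. Their part in the members' values was not tested. Only 4 arrays enter, so the difference of the 2 differences has no test, and it shares the mdx array at 3 months with the comparisons above and below. The genotype and age comparisons all draw on the same 4 arrays and are not independent of each other.

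Between 1 and 3 months most members were lower with age in mdx. Ctsz was 2.07-fold lower at 3 months (670.2 against 1389) and Ctsc 1.53-fold lower (863 against 1323). Ctsh was 1.41-fold and Ctsk 1.35-fold lower, and Ctss, Ctsb, Ctsl and Ctsa had log2 differences of -0.32 to -0.23. Cst3 and Ctsd were each 1.14-fold higher. The comparison shows dystrophic muscle with MMP-2 at both ages, where growth of the animal and the course of the disease cannot be told apart. Thus 8 members were lower and 2 higher, with a median log2 difference of -0.32 beside 0.0 for all genes. Of all genes 47.7% were lower and 48.0% higher. At least 1.5-fold lower were 2 members, where 7.27% of all genes and 5.68% of bright genes were, and none was at least 1.5-fold higher, where 5.97% were. Leaving the arrays unscaled, or scaling by the median, left 1 member at least 1.5-fold lower, Ctsz. The age difference of Ctsc rests on its brightest probe set and was 0.03 as the mean of all its probe sets. Markers of satellite cells and regenerating fibres were lower at 3 months as well, 6 of 6 with a median of -1.07 in mdx and 5 of 6 with a median of -0.61 in mdx/MMP-2 null. In mdx the cartilage and bone markers were lower in 6 of 6 (median -1.29), the endothelial markers in 9 of 10 (median -0.59) and the fibroblast markers in 9 of 11 (median -0.46). The part of these cells in the age differences was not tested.

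In mdx/MMP-2 null the same members showed no common direction with age when quantile normalized. Ctsd was 1.39-fold higher at 3 months (3318 against 2394) and Ctss 1.28-fold higher (2845 against 2228). Ctsz was 1.45-fold lower (808 against 1172) and Ctsa 1.2-fold lower (610.4 against 733). Ctsh, Ctsk and Ctsl stayed within 1.02-fold. There were 6 members higher and 4 lower, with a median log2 difference of 0.10 beside 0.00057 for all genes, and none reached 1.5-fold in either direction, where 7.41% of all genes were higher and 6.7% lower. By any amount, 50.1% of all genes were higher and 45.7% lower. Without scaling, 3 members were at least 1.5-fold higher, and 2 with median scaling. Under both of these settings all members but Ctsz were higher to some degree. The median of all genes was then 0.26 without scaling and 0.19 with median scaling. Ctsa, Ctsd, Cst3 and Ctsz had an age difference of like sign in both genotypes. Those signs held under all 9 settings for Ctsd, Cst3 and Ctsz, while that of Ctsa turned under 1 in mdx and under 3 in mdx/MMP-2 null. Of the 9, only the scalings and the mean of probe sets could turn a sign. Ctsb, Ctsh and Ctsl also changed sign under some settings in mdx/MMP-2 null. Of the marker lists, the endothelial one was lower at 3 months in 10 of 10 (median -0.74), the fibroblast one in 8 of 11 (median -0.24) and the cartilage and bone one in 3 of 6 (median -0.01). Their part was not tested.

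**Figure D3:**
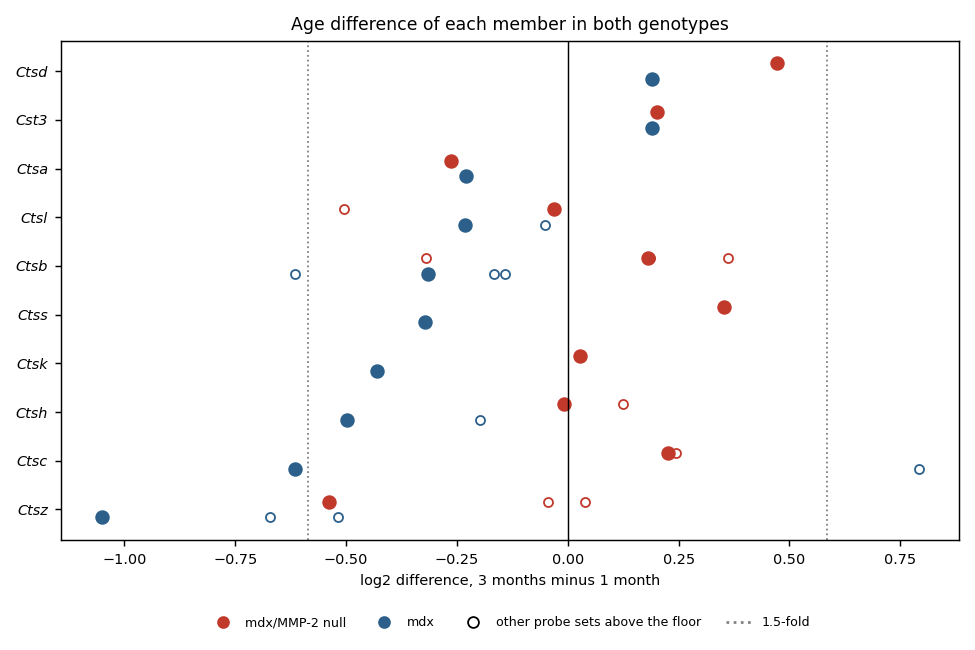
Log2 difference between 3 months and 1 month (horizontal axis) for each gene, with mdx/MMP-2 null in red and mdx in blue. Filled points are the probe set that represents the gene, open points its other probe sets above the floor in all arrays, and dotted lines mark 1.5-fold; in mdx 8 of 10 filled points lie left of 0, and in mdx/MMP-2 null 4 do.

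Several members had more than 1 probe set on the same arrays. Of the 21 probe sets, 18 were above the floor in all 4 arrays. At 3 months mdx/MMP-2 null had the higher signal for 15 of these 18 and the lower for 3, and at 1 month 6 were higher and 12 lower. All 4 such probe sets of Ctsb were lower at 1 month and higher at 3 months, by log2 0.25 to 0.41 at 3 months. The 3 probe sets of Ctsz were likewise lower at 1 month, and higher at 3 months by 0.27 to 0.43. For Ctsh, its other probe set had 294 in mdx/MMP-2 null muscle and 215 in mdx muscle at 3 months, a log2 difference of 0.45, but at 1 month it was higher by 0.13 where the brighter probe set differed by -0.26. The dim second probe set of Ctsl was higher by 0.42 at 1 month and had 18.0 in mdx/MMP-2 null muscle and 18.4 in mdx muscle at 3 months, close to the floor. The dimmer probe set of Ctsc opposed the brighter one, with 61.8 in mdx/MMP-2 null muscle and 81.5 in mdx muscle at 3 months. The mean of all Ctsc probe sets gave a log2 difference of 0.17 at 3 months, in place of 0.71. The dim second probe set of Ctsa, below the floor in mdx at 1 month, also opposed the brighter one at 3 months. It had 31.1 in mdx/MMP-2 null muscle and 34.7 in mdx muscle, a log2 difference of -0.16. The mean of the Ctsa probe sets gave 0.02 at 3 months, in place of 0.20. Ctsk, Ctss, Ctsd and Cst3 had a single probe set each.

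Other genes of the pathway, from lists chosen by role, are given for the genotype difference at 3 months. Lgmn, the lysosomal protease legumain that processes several cathepsins, was 1.69-fold higher (617 against 366). Cstb, a cystatin inside cells, was 1.78-fold higher (2305 against 1294), and Ctla2b, an inhibitor related to the cathepsin propeptide, 1.55-fold higher (199 against 129). Of the lysosomal hydrolases and proteins, 26 of 34 measured were higher and 8 lower, with a median log2 difference of 0.19. Only Lgmn of these reached 1.5-fold higher, and none 1.5-fold lower. Naglu, Gusb and Man2b1, which degrade sugar chains, were 1.47-fold, 1.43-fold and 1.41-fold higher. Of the proton pump and lysosome trafficking genes, 17 of 22 were higher and 5 lower, with a median of 0.24. M6pr, a receptor that sorts enzymes to lysosomes, was 1.35-fold higher, Tfeb 1.28-fold and the pump subunit Atp6v1a 1.27-fold. Gnptg, which helps to tag lysosomal enzymes, was at least 1.84-fold higher, with 32.0 in mdx/MMP-2 null and the floor in mdx.

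The other cathepsins measured did not exceed 176 in any array, and of the inhibitors measured only Fetub stayed close to the floor throughout. Genes not measured were at the floor in all arrays or had no probe set with a single symbol. Of 13 other cathepsins 4 were above the floor in some array, and Ctsf, a further papain-family protease, was 1.51-fold lower in mdx/MMP-2 null muscle at 1 month (78.2 against 118) and 1.22-fold lower at 3 months (75.9 against 92.6). Ctso had 176 in mdx/MMP-2 null muscle and 160.3 in mdx muscle at 3 months. Ctse and Ctsw, known from gastric epithelium and from T and NK cells, did not exceed 21.7 in any array. Of 18 other cystatins and inhibitors 6 were above the floor in some array, 5 of them higher in mdx/MMP-2 null at 3 months and 1 lower, with a median of 0.25 that lay between -0.26 and 0.26 across the other settings. Cst6 was 1.19-fold higher at that age and Fetub did not exceed 20.9 in any array.

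Ctss acts in class II antigen presentation and Ctsk on matrix proteins, and genes of both processes were examined. Of the class II antigen presentation genes, mdx/MMP-2 null muscle had the higher signal at 3 months for 5 of 8 and the lower for 3, with a median of 0.08. Ifi30, a thiol reductase of antigen processing, was 1.41-fold higher, H2-DMa 1.24-fold and Cd74, the invariant chain, 1.13-fold. Ciita, close to the floor, was 1.11-fold higher (22.5 against 20.3). Of the matrix proteins that cathepsins can cut, 9 of 15 were higher and 5 lower, with a median of 0.04. Bgn, a proteoglycan, was 2.05-fold, Fn1, fibronectin, 1.38-fold, Col1a1 1.34-fold and Col5a1 1.27-fold higher.

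Markers of other cells differed between the same arrays. At 3 months all 22 markers of macrophages and monocytes had higher signals in mdx/MMP-2 null than in mdx (19 or more under each setting), with a median log2 difference of 0.67, and their summed signal was 16203 in mdx/MMP-2 null muscle and 10371 in mdx muscle. At 1 month 8 of 22 were higher, with a median of -0.09 and summed signals of 12849 in mdx/MMP-2 null muscle and 14022 in mdx muscle. In mdx 18 of 22 were lower at 3 months than at 1 month, with a median of -0.3, and in mdx/MMP-2 null 20 of 22 were higher, with a median of 0.46. None of these markers was at the floor, save Itgam in mdx/MMP-2 null at 1 month. The summed signal of the 10 members at 1 month was 20680.2 in mdx/MMP-2 null muscle and 21414 in mdx muscle. At 3 months it was 23180 in mdx/MMP-2 null muscle and 19055 in mdx muscle. Both sums, made from quantile normalized signals only, had the same order over the 4 arrays, highest in mdx/MMP-2 null and lowest in mdx at 3 months. The brightest genes weigh most in a sum, and of the members only Ctsb, Ctsc and Ctss had this order themselves. It was not particular to macrophages, since the summed lysosomal hydrolases and proteins had it too. Their sums were 20562 (mdx/MMP-2 null, 3 months), 19330 (mdx, 1 month), 19119 (mdx/MMP-2 null, 1 month) and 18525 (mdx, 3 months). That order depends on the scaling. With median scaling the mdx/MMP-2 null array at 1 month was the lowest for 5 members and the mdx array at 3 months for 5. The part of macrophages and monocytes in the cathepsin differences was not tested. In whole muscle, fewer cells of a type and less RNA per cell cannot be told apart.

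Further markers covered neutrophils, osteoclasts and fibroblasts. Of 10 neutrophil markers 7 were measured, 6 higher and none lower in mdx/MMP-2 null at 3 months, with a median of 1.33. Their summed signals were 757 in mdx/MMP-2 null muscle and 174 in mdx muscle. S100a8 (343 against 35.9) and S100a9 (216 against 20.2) were the brightest of them in mdx/MMP-2 null. Csf3r, Camp and Mmp8 were at the floor in mdx at that age, and Camp in mdx/MMP-2 null too. Of the 5 osteoclast markers measured, relevant to Ctsk, 3 were higher and 1 lower in mdx/MMP-2 null at 3 months, with a median of 0.04. Mmp9, which is also in the neutrophil list, was 1.23-fold higher and Acp5 1.16-fold higher, and Nfatc1 was 1.17-fold lower. They had summed signals of 353 in mdx/MMP-2 null muscle and 363 in mdx muscle at 3 months, with Calcr at the floor in both arrays and Oscar at the floor in mdx. Dcstamp and Ocstamp were not measured, being at the floor in all arrays or without a single-symbol probe set. Fibroblast markers, 4 of which are also in the matrix list, were higher in 10 of 11 cases at 3 months, with a median of 0.14. Endothelial markers had a median of -0.22 and skeletal muscle markers of -0.02. The part of these cells in the cathepsin differences was not tested either.

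**Figure D4:**
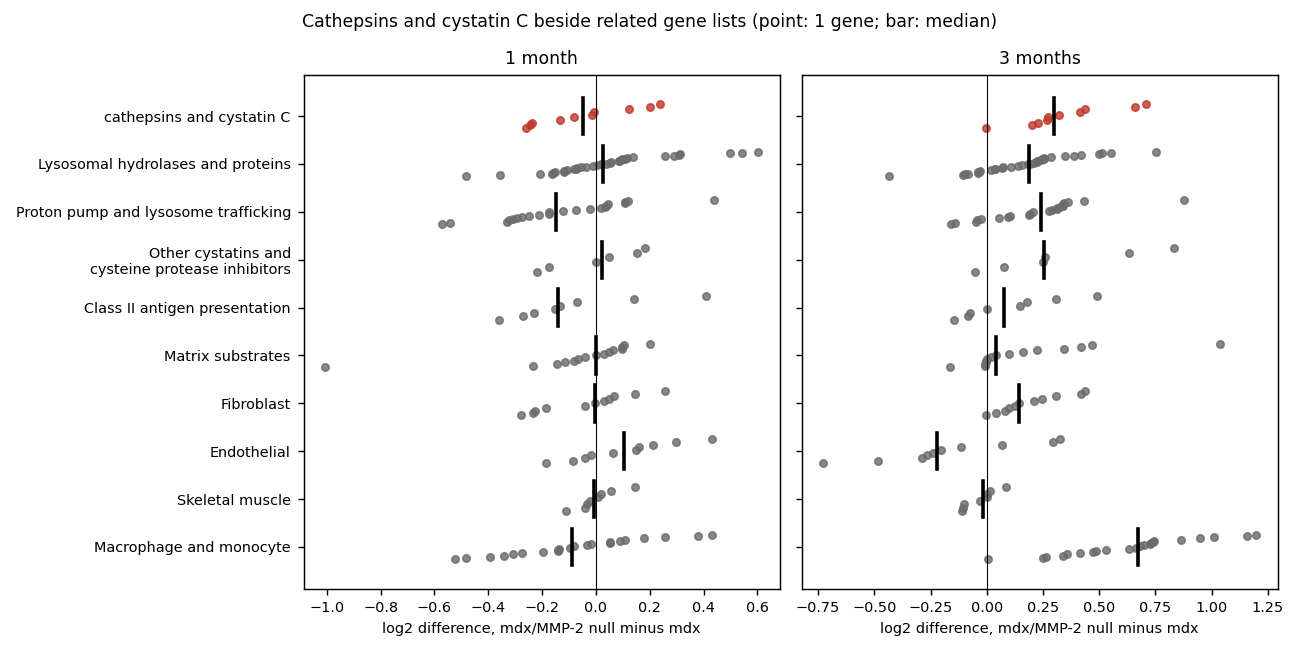
Log2 difference between mdx/MMP-2 null and mdx (horizontal axes) at 1 month and 3 months for each measured gene of the cathepsin and cystatin C group (red) and of 9 other lists (grey), where a point is 1 gene and a black bar the list's median. At 3 months the medians of the members and of the macrophage list were 0.30 and 0.67, and at 1 month they were -0.05 and -0.09.

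The 4 arrays allow a single test, an additive fit of genotype and age in limma with 1 residual degree of freedom per gene. Its error is each gene's departure from additive effects, drawn toward that of all genes. A genotype difference that changes with age thus makes a call less likely. No member and no gene of 12801 passed an adjusted p of 0.05 for genotype or for age (0% called in both), with Benjamini-Hochberg adjustment in limma. At an unadjusted p below 0.05, limma gave 0 members and 4.37% of all genes for genotype, and 1 member and 13.7% of all genes for age. That member was Ctsz, with an age effect of -0.79 on the log2 scale (95% interval -1.3 to -0.29), lower at 3 months in both genotypes, and an adjusted p of 0.289 in limma. The largest genotype effect among members was that of Ctsk, 0.43 (95% interval -0.06 to 0.92), higher in mdx/MMP-2 null at both ages, with an adjusted p of 0.982 in limma. For Cst3 the genotype effect was -0.01, with a 95% interval of -0.41 to 0.39.

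Across the 4 arrays, the members' log2 signals minus each gene's own mean averaged 0.05 in mdx/MMP-2 null muscle and 0.09 in mdx muscle at 1 month, and 0.11 in mdx/MMP-2 null muscle and -0.24 in mdx muscle at 3 months. Ctsb lay closest to this mean pattern, at a Euclidean distance of 0.086 on the log2 scale, and Ctsz furthest, at 0.68. Of 7620 other named genes with a signal of at least 85.4, the nearest were Itgbl1 (0.037), Gtpbp2 (0.045), Sin3b (0.047), Pan3 (0.05) and Chodl (0.052). Itgbl1 had 251 in mdx/MMP-2 null muscle and 257 in mdx muscle at 1 month, and 254 in mdx/MMP-2 null muscle and 205 in mdx muscle at 3 months. These distances rest on 4 arrays and are a description.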

How the data were processed

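Total RNA of tibialis anterior was hybridised to 4 arrays, 1 per group, with groups taken from the sample labels. The deposited values are probe set intensity on a linear scale. Per the submitters' processing notes, they came from MAS5 in Affymetrix Expression Console. The sources used here do not give software versions or target settings, and the deposited columns had unequal means. Of 45101 probe sets, 64 controls were left out. Of the other 45037, 34945 had 1 symbol in the platform annotation, 932 several and 9160 none, and 34741 matched a mouse gene table by gene identifier.

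Arrays were quantile normalized with limma 3.58.1 under R 4.3.3. Signals were raised to a floor of 17.4 (the 50th percentile) and put on the log2 scale. A gene was represented by its single-symbol probe set with the highest mean, and genes that never exceeded the floor were dropped. In place of a test, genes reaching 1.5-fold were counted. The additive fit used lmFit and eBayes in limma. It was also run on simulated data with large, purely additive genotype effects. That run does not show how the fit treats small differences or differences that change with age. Tables were made in Python 3.11.15 with pandas 2.3.3. Depth is not defined for arrays, and their number limits precision.

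The members, lists, motifs and tests were chosen with earlier results of these data known. All 10 members are named. From each related list at most 4 genes were named, those with the largest genotype difference at 3 months. Itgbl1 and the other genes of like pattern are the 5 nearest by Euclidean distance. Alternatives were median, cyclic loess and no scaling, a floor raised to the 60th or cut to the 40th percentile, a pseudocount of 4.36 in place of a floor, averaging a gene's probe sets, leaving out _x_at and _s_at probe sets, thresholds of 2-fold and of 0.32 on the log2 scale, a variance prior that follows signal, and unadjusted p. Counting among bright genes only was added after seeing the data.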

Additional observations from a re-analysis of the deposited data

Results flagged for a closer look

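The genotype difference of Ctsc had opposite signs at the 2 ages, lower in mdx/MMP-2 null than in mdx at 1 month (1205 against 1323) and higher at 3 months (1409 against 863), so that the 2 differences were 0.84 apart on the log2 scale. That holds for its brightest probe set alone. Its other probe set above the floor in all arrays ran the other way, 0.15 at 1 month and -0.40 at 3 months, and the mean of all its probe sets put the differences 0.20 apart. Ctss, with 1 probe set, also had opposite signs, lower at 1 month (2228 against 2625) and higher at 3 months (2845 against 2100.0), and its differences were 0.67 apart. Opposite signs were not particular to these genes. Ctsb, Ctsh, Ctsz and Ctsd had them too, with differences 0.28 to 0.51 apart, below 1.5-fold, and the sign of Ctsd at 1 month turned under some settings. Each difference rests on 1 array per group, and the difference between the ages was not tested.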

How the results depend on the processing

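The median of the members relative to that of all genes kept its sign under all 9 alternatives of scaling, floor, probe sets and bright genes in each comparison, from 0.25 to 0.31 for the genotype difference at 3 months, from -0.11 to -0.02 for that at 1 month, and from 0.08 to 0.17 for age in mdx/MMP-2 null. For age in mdx it was -0.18 with median scaling in place of -0.32, and the difference of the differences was 0.28 with the mean of all probe sets in place of 0.47. Of the 9 alternatives, only the scalings and the mean of all probe sets could turn the sign of a member. The count of members at least 1.5-fold higher at 3 months, 2, was 9 without scaling, 1 with the mean of all probe sets, 0 at 2-fold and 4 at the threshold of log2 0.32. Members lower with age in mdx, 2, were 1 with median scaling, without scaling, with the mean of all probe sets and at 2-fold, and 4 at the threshold of log2 0.32. In mdx/MMP-2 null, where none passed, 2 were higher with median scaling, 3 without scaling and 2 at the threshold of log2 0.32, and 1 was lower at the threshold of log2 0.32. For the difference of the differences, 2 became 5 with median scaling, 6 without scaling, 1 with the mean of all probe sets, 0 at 2-fold and 6 at the threshold of log2 0.32. The age difference of Ctsc in mdx turned to 0.0346 with the mean of all probe sets, in place of -0.62, since its dimmer probe sets enter. The additive fit called 0 members under all settings except unadjusted p, with 1 for age. Without scaling, 3868 genes were at least 1.5-fold higher and 63 lower at 3 months, against 783 and 426 with scaling, and for the other comparisons the share of calls that were higher moved as well: 78.2% in place of 49.7% for genotype at 1 month, 28.1% in place of 45.1% for age in mdx, and 83.9% in place of 52.5% for age in mdx/MMP-2 null. That setting moved the median of all genes by 0.41 at 3 months and by 0.26 for age in mdx/MMP-2 null, and median scaling moved it by -0.10 at 1 month and by 0.19 for age in mdx/MMP-2 null. Differences of dim probe sets near the floor are the least certain. No replicate could be left out, as each group had 1 array. No paired analysis was possible because each group held 1 array.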
